A study of Mus musculus with 8 samples.

Results

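The 9 genes described here encode the enzymes of intracellular lipolysis and the proteins that switch them on or off. They were chosen by symbol from a list of lipases, cofactors and inhibitors, which makes 9 of the 41388 genes in the deposited count tables, and all 9 had enough reads to be among the 16705 genes tested. The tables hold sequencing of rRNA-depleted total RNA from brown adipose tissue of 8 C57BL/6J mice on regular chow at room temperature. In 4 mice, called ANKO, an adiponectin-Cre transgene acted on floxed Nampt alleles. This Cre is active in adipocytes of all fat depots, while other cells of the tissue keep Nampt. The other 4 mice, labelled wild type and called WT, carried the floxed alleles. The labels give no age. The comparison asks how brown fat differs when its adipocytes lose Nampt, the enzyme that makes nicotinamide mononucleotide for NAD+ salvage.

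Lipolysis removes the fatty acids of a triglyceride in steps. Pnpla2 (also called ATGL) cuts the triglyceride, Lipe (hormone-sensitive lipase) cuts the diglyceride, and Mgll or Abhd6 cuts the monoglyceride. Abhd5 (CGI-58) activates Pnpla2, and the small proteins G0s2 and Hilpda inhibit it. Plin1 and Plin5 coat the lipid droplet. At rest Plin1 holds Abhd5, and protein kinase A releases it by phosphorylating Plin1, while Plin5 binds Pnpla2 and Abhd5 in tissues that burn fat. In brown fat the released fatty acids are fuel for heat production and activate the uncoupling protein.

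The sequences upstream of 5 of these genes are shown because their transcripts stood at different ends of the comparison: G0s2 and Plin5 had the largest decreases, their partners Pnpla2 and Plin1 smaller ones, and Hilpda did not pass the test. They come from RefSeq (GRCm38.p6), which had windows for all 9 genes. RefSeq gives Plin5 and Hilpda 2 starts each, and the stretch shown is that of the outer one. Each is the part of the 250 bases before the start that lies outside the gene's span in the files, read 5′ to 3′ on the gene's strand. Capitals mark every match, on either strand, to AGGTCA (a nuclear receptor element), TTGCNNAA (a C/EBP-type element), TGACGTCA (the cAMP response element), ACGTG (the core of the hypoxia response element), TATAAA (the TATA box) and GGGCGG (the GC box). In these 5 stretches no match overlapped another.
G0s2 (chr1:193273189-193273438, minus strand): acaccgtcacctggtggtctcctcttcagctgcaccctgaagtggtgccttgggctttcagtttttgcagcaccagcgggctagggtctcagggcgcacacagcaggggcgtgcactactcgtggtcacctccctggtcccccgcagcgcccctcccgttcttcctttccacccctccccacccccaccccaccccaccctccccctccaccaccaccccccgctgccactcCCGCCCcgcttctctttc
Plin5 (chr17:56117597-56117798, minus strand): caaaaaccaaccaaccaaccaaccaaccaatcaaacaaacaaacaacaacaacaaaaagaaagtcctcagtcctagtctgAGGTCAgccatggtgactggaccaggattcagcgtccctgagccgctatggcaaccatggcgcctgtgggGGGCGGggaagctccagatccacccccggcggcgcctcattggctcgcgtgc
Pnpla2 (chr7:141454938-141455187, plus strand): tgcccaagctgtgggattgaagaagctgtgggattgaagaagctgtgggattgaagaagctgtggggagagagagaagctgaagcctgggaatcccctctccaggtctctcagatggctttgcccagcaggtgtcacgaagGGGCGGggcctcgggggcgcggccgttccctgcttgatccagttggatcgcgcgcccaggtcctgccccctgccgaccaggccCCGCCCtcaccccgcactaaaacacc
Plin1 (chr7:79732777-79733026, minus strand): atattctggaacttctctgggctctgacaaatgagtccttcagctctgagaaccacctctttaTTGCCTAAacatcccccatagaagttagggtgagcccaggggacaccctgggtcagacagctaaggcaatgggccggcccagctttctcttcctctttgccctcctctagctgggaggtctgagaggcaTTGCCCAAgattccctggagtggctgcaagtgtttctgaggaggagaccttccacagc
Hilpda (chr6:29272238-29272487, plus strand): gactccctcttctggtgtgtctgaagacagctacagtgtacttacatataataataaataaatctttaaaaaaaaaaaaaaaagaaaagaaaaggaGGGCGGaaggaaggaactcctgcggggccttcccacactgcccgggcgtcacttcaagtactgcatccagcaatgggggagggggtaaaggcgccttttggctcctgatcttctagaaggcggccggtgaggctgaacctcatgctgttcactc
Plin5 held 1 AGGTCA, whose first base lay 170 bases before the start, and 1 GC box. Plin1 held 2 TTGCNNAA matches, at 187 and 58 bases, and no GC box. Pnpla2 held 2 GC boxes, and G0s2 and Hilpda 1 each. The windows of the inner starts, not printed, held 2 GC boxes for Plin5 and 1 ACGTG, at 43 bases, for Hilpda. Among 32851 windows of 250 bases, 14.02% held AGGTCA, 9.56% TTGCNNAA, 1.55% TGACGTCA, 16.6% ACGTG, 12.4% TATAAA and 32.7% GGGCGG. A match is a description of these letters, not a binding site.

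Nampt itself averaged 72.3 ± 4.67 CPM in ANKO and 508 ± 42.2 CPM in WT (SD, n = 4 each), with every ANKO library below every WT library, as the labels have it. The transcript Gdap10 overlaps the gene and had up to 61.3% as many counts as Nampt in a library, and reads of undeleted exons and of cells without Cre count here too. Levels are CPM, the share of a library's counts that a gene holds per 1e+06, scaled for library composition. ANKO libraries held 5738067 to 26426476 counts and WT libraries 21771276 to 49697156. Markers of other cells moved with genotype. The summed level of 10 skeletal muscle markers was 8883 to 13418 CPM in ANKO and 29.1 to 2520 CPM in WT, with 8 of 10 called higher. All 10 macrophage markers were higher, with sums of 1159 to 1618.5 CPM in ANKO and 145 to 189 CPM in WT, and so were 5 of 5 fibroblast markers (3156 to 6000 CPM in ANKO, 701 to 1054 CPM in WT). Among the 15 markers of adipocytes in general, 13 fell and 0 rose, with sums of 14042 to 18831 CPM in ANKO and 33641 to 41543 CPM in WT. Of 10 brown adipocyte markers 8 were lower, with sums of 1038 to 3612 CPM in ANKO and 7076 to 14539 CPM in WT. No marker of these lists was at 0 in any library. Endothelial sums were 560 to 631 CPM in ANKO and 789 to 900.5 CPM in WT (3 of 5 lower), and lymphocyte sums 14.9 to 21.7 CPM in ANKO and 2.20 to 3.86 CPM in WT (4 of 5 higher). In such bulk tissue, fewer adipocytes and less RNA per adipocyte cannot be told apart.

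Brown fat of ANKO mice had less RNA of 7 of the 9 lipolysis genes than WT brown fat, and 0 of the 9 were called higher. The largest decreases were those of G0s2, a Pnpla2 inhibitor, which fell to 17.2% of the WT mean, and of the coat protein Plin5, which fell to 22.3%. Pnpla2, Plin1, Lipe, Abhd5 and Abhd6 fell to between 40.0% and 64.7%. Mgll and Hilpda did not pass the test. The background is high: 27.6% of all genes tested were lower and 30.6% higher in ANKO, 58.2% in all (edgeR adjusted p under 0.05). By at least 1 on the log2 scale 4 of the 9 were lower, against 7.24% of all genes. DESeq2 also called 7 lower and 0 higher, with 22.4% of its genes lower and 26.1% higher (48.5% in all). Among the 1835 most abundant genes (100 CPM or more on average), 53.1% were lower, and 6 of the 7 lipolysis genes that abundant were. The median log2 fold change was -0.98 over the 9 genes and -0.01 over all genes tested. In 7 of the 9 genes every ANKO library was below every WT library, which held for 26.4% of all genes tested, while the reverse held for 28.7% (55.0% in either direction). When the muscle marker level entered the fit as a covariate, 3 of the 9 genes were called lower and 0 higher (10.8% and 14.6% of all genes tested, 25.3% in all), namely Pnpla2, G0s2 and Plin5. The covariate moves with genotype, so genotype and muscle RNA cannot be fully told apart, and the part of macrophage and fibroblast RNA was not tested.

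**Figure D1:**
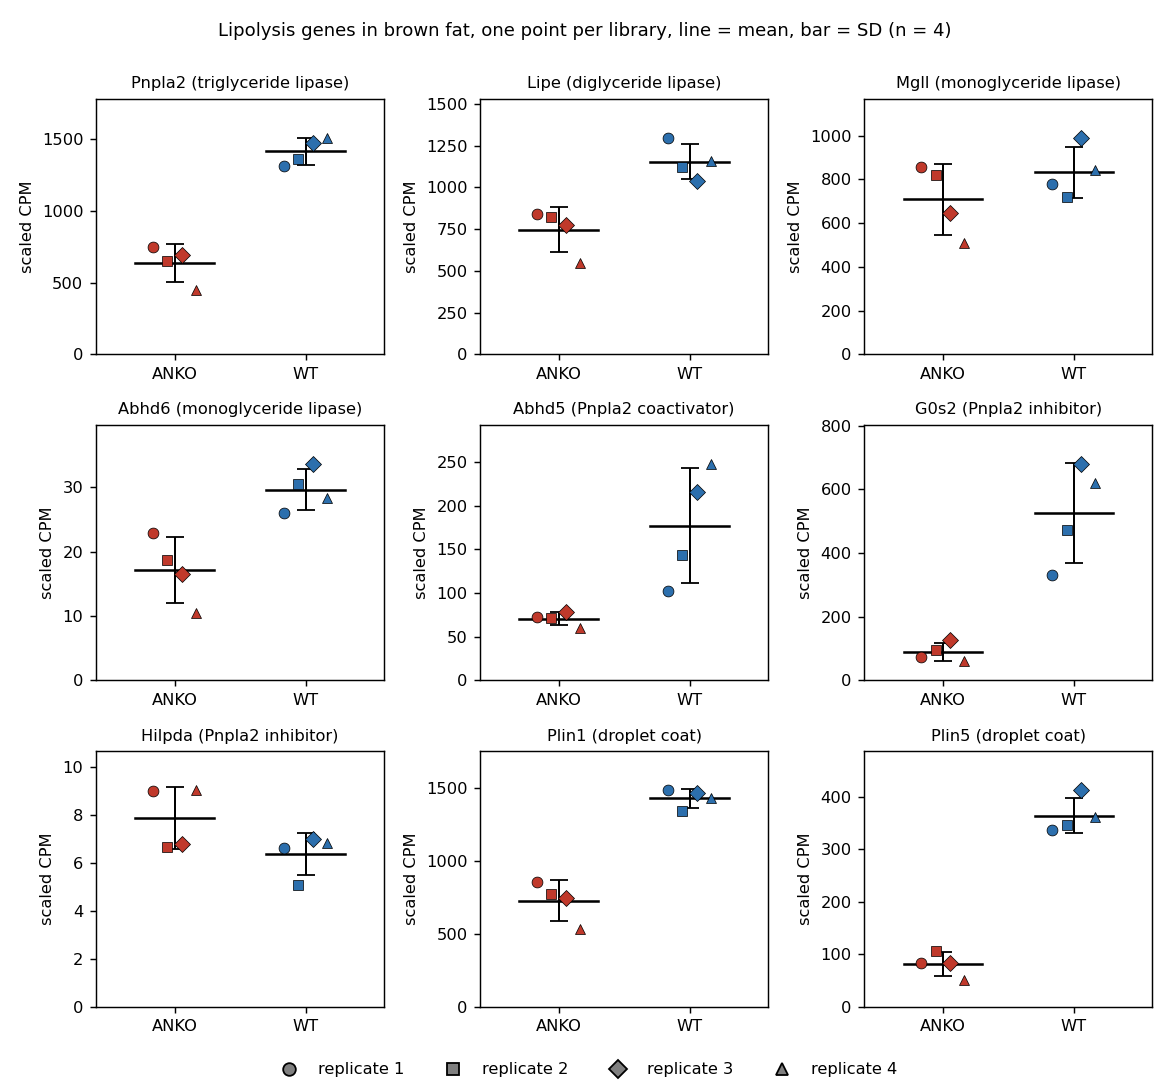
Scaled CPM (vertical axes, from 0) of the 9 genes in each library, with ANKO on the left and WT on the right of each panel, marker shape for the replicate number, a line at the mean and bars for the SD (n = 4 each). The groups are apart in 7 panels and overlap for Mgll and Hilpda, and Abhd5 and G0s2 spread widely within WT.

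Pnpla2 (ENSMUSG00000025509, chromosome 7, 141455198 to 141460743, plus strand, GRCm38) commits a triglyceride to breakdown. It had 752, 650.1, 696 and 451 CPM in ANKO libraries 1 to 4, against 1313, 1365, 1477 and 1509 CPM in WT libraries 1 to 4. The highest ANKO library was far below the lowest WT library, and ANKO4 was the lowest of all. Its log2 fold change came to -1.15 (standard error 0.17, edgeR adjusted p = 0.000311), and -0.97 with the muscle covariate (standard error 0.30, edgeR adjusted p = 0.0398).

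Lipe (ENSMUSG00000003123, chromosome 7, 25379527 to 25398710, minus strand) acts on the diglyceride that Pnpla2 leaves. Its levels were 843, 825, 774 and 548 CPM in ANKO libraries 1 to 4 and 1297, 1124, 1040 and 1161 CPM in WT libraries 1 to 4. The groups were apart, but by less than for Pnpla2: the log2 fold change was -0.63 (standard error 0.17, edgeR adjusted p = 0.00844). With the muscle covariate the estimate was -0.67 with a standard error of 0.30 and was not called (edgeR adjusted p = 0.131). An antisense transcript inside the gene, 4732471J01Rik, had at most 0.317% of the counts of Lipe in any library.

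Mgll (ENSMUSG00000033174, chromosome 6, 88724412 to 88828360, plus strand) frees the last fatty acid and also breaks down the endocannabinoid 2-arachidonoylglycerol. It had 857, 823, 648 and 508 CPM in ANKO libraries 1 to 4 and 779, 719, 990.2 and 845 CPM in WT libraries 1 to 4. ANKO1 and ANKO2 lay inside the WT range, and ANKO3 and ANKO4 lay below it. The log2 fold change of -0.23 had a 95% confidence interval from -0.65 to 0.19 (edgeR adjusted p = 0.310), and its sign turned with the muscle covariate (0.10, standard error 0.33). The log2 fold changes of Pnpla2, Plin1 and Abhd6 lie outside this interval, and that of Lipe lies inside it. Those estimates have error too. The 95% intervals of Abhd6 (-1.20 to -0.33) and Plin1 (-1.34 to -0.61) overlap that of Mgll, and that of Pnpla2 (-1.54 to -0.76) does not. All come from the same libraries, so their overlap is no test of a difference between genes. The ratio of Abhd6 to Mgll within each library is given later.

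Abhd6 (ENSMUSG00000025277, chromosome 14, 8002902 to 8056555, plus strand), the membrane-bound monoglyceride lipase, was far less abundant. It had 22.9, 18.7, 16.5 and 10.5 CPM in ANKO libraries 1 to 4, against 26.0, 30.5, 33.6 and 28.4 CPM in WT libraries 1 to 4. No ANKO library reached the lowest WT library, though ANKO1 came close. Abhd6 differed by -0.77 on the log2 scale (standard error 0.20, edgeR adjusted p = 0.00685), and -0.66 with a standard error of 0.33 with the muscle covariate, where it was not called (edgeR adjusted p = 0.177).

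Abhd5 (ENSMUSG00000032540, chromosome 9, 122351608 to 122381524, plus strand), the activator of Pnpla2, had 72.2, 72.0, 78.9 and 60.3 CPM in ANKO libraries 1 to 4, against 103, 143, 215 and 247 CPM in WT libraries 1 to 4. The ANKO libraries were close together, while the WT libraries differed widely, with WT3 and WT4 highest. WT3 and WT4 were also the WT libraries with the least muscle RNA (marker sums of 111 and 29.1 CPM, against 863 in WT1 and 2520 in WT2). The fitted log2 fold change was -1.32 (standard error 0.25, edgeR adjusted p = 0.00133). It was -0.81 without WT3 and WT4, where it stayed called (edgeR adjusted p = 0.00277), and -0.42 with the muscle covariate, where it was not (edgeR adjusted p = 0.281). The antisense gene A730085K08Rik overlaps its end and had at most 4.19% of its counts.

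G0s2 (ENSMUSG00000009633, chromosome 1, 193272161 to 193273188, minus strand) binds Pnpla2 and blocks it. It had 75.0, 97.0, 127 and 62.7 CPM in ANKO libraries 1 to 4, against 330, 474, 680 and 621 CPM in WT libraries 1 to 4. WT libraries spread over a wide range, yet the lowest of them was well above the highest ANKO library. The log2 fold change of -2.54 (standard error 0.28, edgeR adjusted p = 4.16e-05) was a 5.82-fold decrease, with a 95% confidence interval from -3.16 to -1.92. It was -1.96 with the muscle covariate (standard error 0.40, edgeR adjusted p = 0.00653), and -2.17 without WT3 and WT4.

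Hilpda (ENSMUSG00000043421, chromosome 6, 29272488 to 29275446, plus strand), the other Pnpla2 inhibitor and a gene known to respond to hypoxia, was rare. It had 8.99, 6.68, 6.81 and 9.03 CPM in ANKO libraries 1 to 4 and 6.63, 5.09, 6.99 and 6.85 CPM in WT libraries 1 to 4. ANKO1 and ANKO4 were above all WT libraries and the other two were within their range. The log2 fold change of 0.30 did not pass the test (95% confidence interval -0.07 to 0.68, edgeR adjusted p = 0.143). Only 58 to 235 reads per ANKO library and 131 to 301 per WT library stood behind it. In 1 random thinning of all libraries to the lowest total it was called, at 0.72 (edgeR adjusted p = 0.00797).

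Plin1 (ENSMUSG00000030546, chromosome 7, 79721164 to 79732776, minus strand), the droplet gatekeeper of adipocytes, had 857, 775, 750.4 and 532 CPM in ANKO libraries 1 to 4, against 1487, 1343, 1472 and 1433 CPM in WT libraries 1 to 4. WT libraries lay close together and every ANKO library was far below them. On the log2 scale it differed by -0.98 (standard error 0.17, edgeR adjusted p = 0.000641). With the muscle covariate it was -0.89 with a standard error of 0.30 and was not called (edgeR adjusted p = 0.0538).

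Plin5 (ENSMUSG00000011305, chromosome 17, 56111601 to 56117596, minus strand), which ties droplets to mitochondria in fat-burning tissues, had 83.0, 107, 82.9 and 51.1 CPM in ANKO libraries 1 to 4, against 336, 346, 412 and 362 CPM in WT libraries 1 to 4. All ANKO libraries were below the lowest WT library by a wide margin. The log2 fold change was -2.17 (standard error 0.20, 4.49-fold lower, edgeR adjusted p = 1.21e-05), and -1.98 with the muscle covariate (standard error 0.32, edgeR adjusted p = 0.00170).

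**Figure D2:**
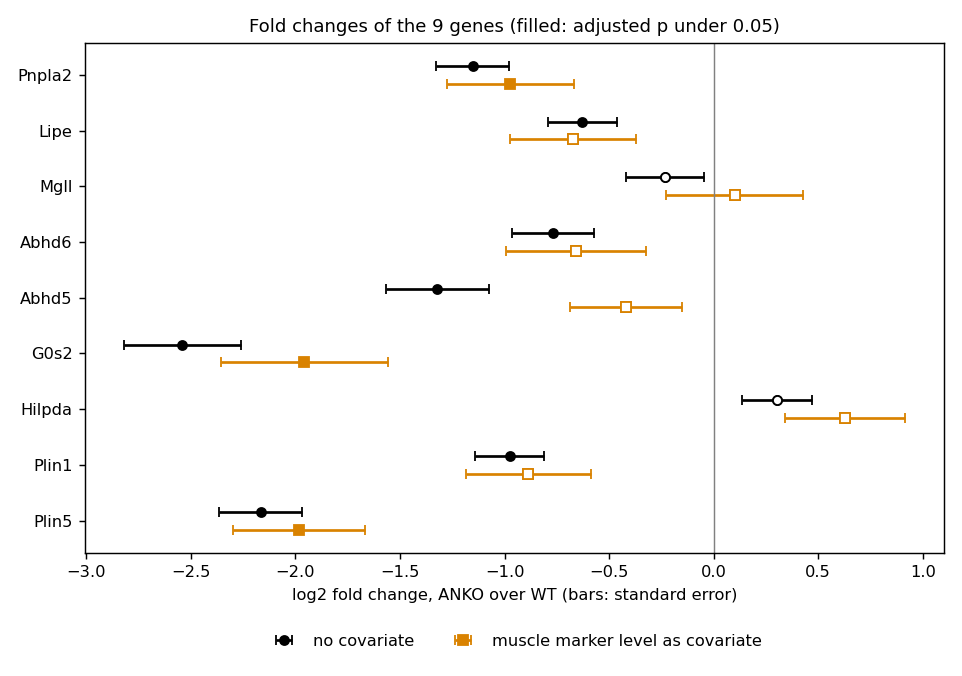
Log2 fold change of ANKO over WT (horizontal axis) with its standard error for each of the 9 genes, from the test without a covariate (black circles) and with muscle markers as covariate (orange squares), filled where the edgeR adjusted p was under 0.05. G0s2 and Plin5 are farthest to the left in both, and standard errors are wider with the covariate.

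The order of the genes was compared as scaled RPKM, which is CPM divided by exon length. In ANKO it was Plin1 (380 ± 72.5), Pnpla2 (211 ± 43.3), Lipe (165 ± 30.2), Mgll (146 ± 33.2), G0s2 (107 ± 33.4), Plin5 (38.8 ± 10.95), Abhd5 (19.6 ± 2.13), Abhd6 (7.94 ± 2.40) and Hilpda (7.14 ± 1.19 RPKM, SD, n = 4). In WT it was Plin1 (748 ± 33.8), G0s2 (625 ± 186), Pnpla2 (469 ± 30.6), Lipe (256 ± 23.8), Plin5 (174 ± 16.2), Mgll (171 ± 24.0), Abhd5 (49.0 ± 18.3), Abhd6 (13.7 ± 1.49) and Hilpda (5.79 ± 0.797 RPKM, SD, n = 4). G0s2 was thus the fifth of the 9 in ANKO and the second in WT. In ANKO the libraries of neighbouring genes overlapped from Pnpla2 through Lipe and Mgll to G0s2, and for Abhd6 with Hilpda. In WT those of Plin1 with G0s2, G0s2 with Pnpla2, and Plin5 with Mgll overlapped, and the other neighbours were apart.

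Since the genes act in pairs, 8 ratios of partners were also taken within each library, which removes library scaling. The inhibitors moved in opposite directions relative to Pnpla2. There were 9.98, 14.9, 18.2 and 13.9 reads of G0s2 per 100 reads of Pnpla2 in ANKO libraries 1 to 4, against 25.1, 34.7, 46.0 and 41.1 in WT libraries 1 to 4. All ANKO ratios were below all WT ratios, by 1.36 on the log2 scale (2.57-fold). For Hilpda there were 1.20, 1.04, 0.985 and 2.02 reads per 100 reads of Pnpla2 in ANKO libraries 1 to 4, against 0.507, 0.374, 0.474 and 0.455 in WT libraries 1 to 4. These ratios were 2.79-fold higher in ANKO (1.48 on the log2 scale), with no overlap, while Hilpda itself was not called. Pnpla2 fell along with most adipocyte markers. Set against the mean of those markers, 79.8% of all genes tested were higher in ANKO and 1.63% lower (exact two-sided permutation p under 0.05). The shares relative to Pnpla2 itself were not counted, so the rise is not shown to be particular to Hilpda.

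Activator and lipase kept a like ratio on average. Abhd5 had 9.60, 11.1, 11.3 and 13.4 reads per 100 reads of Pnpla2 in ANKO libraries 1 to 4, within the WT values of 7.82, 10.5, 14.6 and 16.4 in WT libraries 1 to 4. The difference was -0.07 on the log2 scale (exact two-sided permutation p = 0.80), and that of Abhd5 to Plin1 was -0.25 (exact permutation p = 0.457). These p-values do not show that the ratios were the same, since the WT libraries spread widely. Lipe gained on Pnpla2, with 118 reads per 100 in ANKO and 81.4 in WT (geometric means, 0.53 on the log2 scale), and the groups did not overlap. Plin5 lost against Plin1, with 10.9 reads per 100 in ANKO and 25.3 in WT (2.32-fold lower). Abhd6 lost against Mgll, with 2.38 reads per 100 in ANKO and 3.57 in WT (-0.58 on the log2 scale). Mgll to Lipe overlapped between groups, with 94.2 reads per 100 in ANKO and 71.8 in WT (exact permutation p = 0.0857). The 5 ratios without overlap each had p = 0.0286 in an exact two-sided permutation test, or 0.0457 adjusted over the 8 ratios. The smallest p that 4 against 4 libraries can give is 0.0286. How many other pairs of genes would separate the groups was not counted, while 55% of single genes tested did. Relative to the mean of the adipocyte markers, 79.8% of genes tested were higher in ANKO and 1.63% lower (exact permutation p under 0.05). A ratio over an adipocyte gene that is higher in ANKO is thus less unusual than a lower one. The pairs were chosen with earlier results of these data known, so the p-values describe these pairs and are no independent support.

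**Figure D3:**
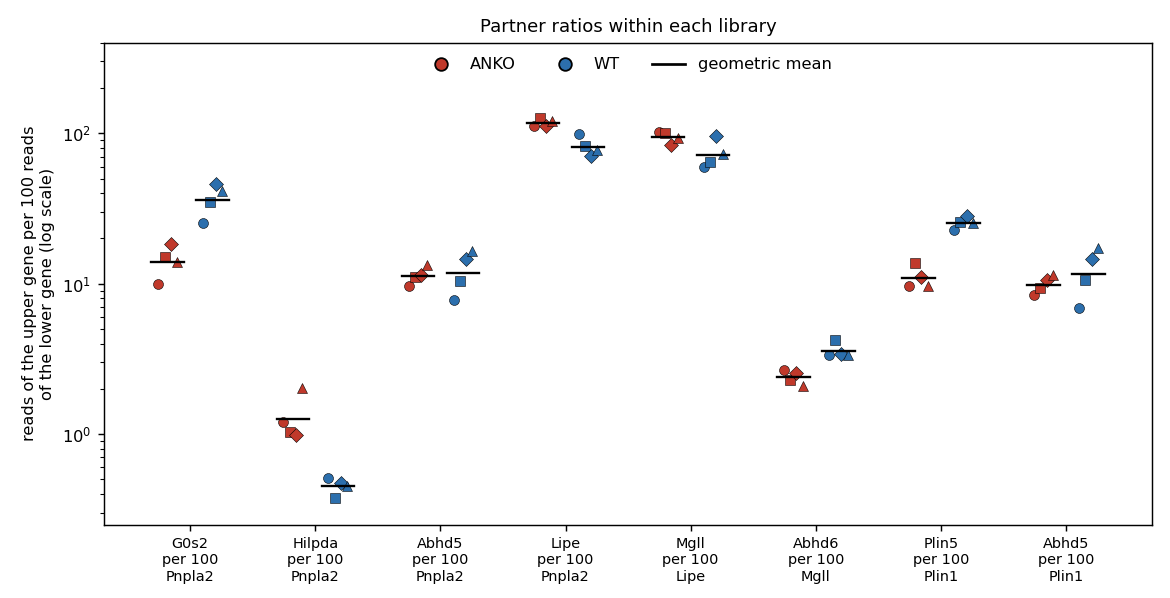
Reads of the upper gene per 100 reads of the lower gene in each library (vertical log axis) for 8 pairs, ANKO in red left of WT in blue, with marker shape for the replicate number and a line at the geometric mean. G0s2 per Pnpla2 and Plin5 per Plin1 are lower in ANKO, Hilpda per Pnpla2 is higher, and the ratios of Abhd5 overlap.

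Each gene was also set against the geometric mean of the 15 general adipocyte markers in the same library, most of which fell in ANKO. By this measure Pnpla2 did not stand apart, with a difference between ANKO and WT of -0.02 on the log2 scale (exact two-sided permutation p = 0.771). Plin1 differed by 0.15 (exact p = 0.143), Abhd6 by 0.31 (exact p = 0.143) and Abhd5 by -0.09 (exact p = 0.914). Relative to the adipocyte markers, G0s2 and Plin5 were lower in ANKO than in WT, by 1.39 and 1.06 on the log2 scale. All 4 ANKO libraries were below all 4 WT libraries (exact p = 0.0286 for each). Only 1.63% of all genes tested were lower by this measure at that p, while 79.8% were higher. By the same measure Hilpda, Mgll and Lipe were higher in ANKO than in WT, by 1.451, 0.90 and 0.51 (exact p = 0.0286 for each), as most genes were. With Adipoq alone in place of the 15 markers G0s2 and Plin5 differed by -1.66 and -1.33 (exact p = 0.0286 for each), Lipe lost its call (0.24, exact p = 0.143) and Pnpla2 was lower (-0.29, exact p = 0.0286).

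**Figure D4:**
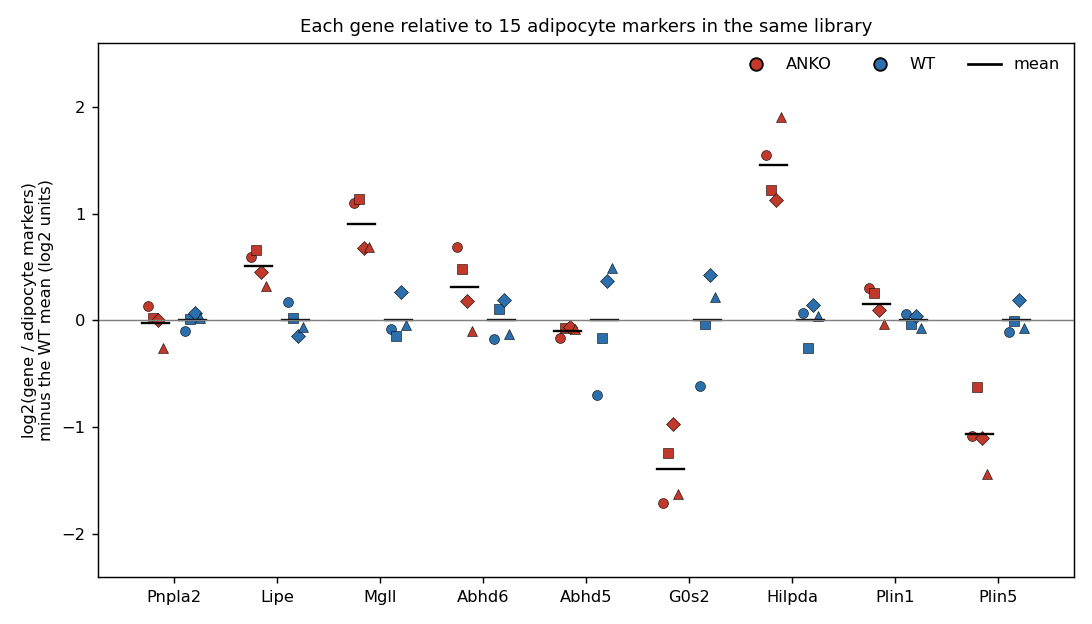
Log2 ratio of each gene to the geometric mean of 15 adipocyte markers in the same library, minus the WT mean of that gene (vertical axis, log2 units), ANKO in red left of WT in blue, with a line at the mean. G0s2 and Plin5 lie below the WT libraries, Hilpda, Mgll and Lipe above, and Pnpla2, Abhd5, Abhd6 and Plin1 overlap with WT.

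Genes that signal to the lipases were mostly lower in ANKO: of 17 in the list, 13 were lower and 2 higher. Of all genes tested 27.6% were lower and 30.6% higher. The median log2 fold change was -0.85, against -0.01. Among the 1835 genes with 100 CPM or more on average, 53.1% were lower and 13.4% higher. This list and those that follow hold many genes that abundant. The listed signalling genes cover the path from receptor to kinase. The β1 receptor Adrb1 fell 3.45-fold and the β3 receptor Adrb3 1.53-fold. The stimulatory G protein Gnas fell 3.91-fold and the adenylyl cyclases Adcy3 and Adcy6 4.48-fold and 2.61-fold. The protein kinase A subunit Prkar2b, a regulatory subunit, averaged 488 ± 93.2 CPM in ANKO and 1881 ± 204 CPM in WT (SD, n = 4 each). The catalytic subunits Prkaca and Prkacb fell less, 1.86-fold and 1.44-fold, and Prkar1a 1.27-fold. Pde3b, the phosphodiesterase through which insulin curbs lipolysis, fell 2.86-fold, Pde4d 3.20-fold and the insulin receptor Insr 1.77-fold. The natriuretic peptide receptor that signals, Npr1, fell 1.80-fold, and the one that clears the peptides, Npr3, was 309 ± 32.8 CPM in ANKO and 97.8 ± 25.5 CPM in WT, 3.16-fold higher. Pde4b was the other higher gene (2.10-fold). The antilipolytic receptors Hcar1 (23.7 CPM in ANKO, 34.0 CPM in WT) and Adora1 (97.6 CPM in ANKO, 95.1 CPM in WT) did not pass.

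Other proteins of the lipid droplet were split, with 5 of 9 lower and 2 higher, where 27.6% and 30.6% of all genes were (median -0.62). The lower share, 55.6%, was close to the 53.1% of genes with 100 CPM or more, of which 13.4% were higher. Plin2, the coat protein found in most cells, rose while Plin1 and Plin5 fell: it had 2173, 1923, 1335 and 966 CPM in ANKO libraries 1 to 4 and 839, 819, 993 and 1217 CPM in WT libraries 1 to 4. The groups overlapped through ANKO4 and the log2 fold change was 0.73 (standard error 0.26, edgeR adjusted p = 0.0324). Fitm1, a droplet-forming protein typical of muscle, was higher, with means of 18.7 CPM in ANKO and 1.17 CPM in WT, where WT1 and WT2, the WT libraries with more muscle RNA, had 1.44 and 2.87 CPM and WT3 and WT4 had 0.122 and 0.250 CPM. Fitm2 fell 2.37-fold, Cidea 2.64-fold, the fusion protein Cidec 1.88-fold, Bscl2 (seipin) 1.82-fold and Plin4 1.54-fold. Plin3 (116 CPM in ANKO, 127 CPM in WT) and Faf2 (58.1 CPM in ANKO, 65.1 CPM in WT) did not pass.

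Of 9 other lipases 5 were lower and 4 higher, beside 27.6% and 30.6% of all genes (median -0.71). Among genes with 100 CPM or more the shares were 53.1% and 13.4%. The carboxylesterases Ces1d and Ces1f, which can hydrolyse triglycerides, each fell 3.45-fold. Both belong to a cluster of closely related genes, so their values are uncertain where counting split reads among copies. The diacylglycerol lipase Dagla fell 2.99-fold. Lpl, the lipase of the capillary wall, fell 1.87-fold and Ddhd2 1.63-fold. The lysosomal acid lipase Lipa rose 1.62-fold, with 326, 259, 283 and 264 CPM in ANKO libraries 1 to 4 and 177, 179, 181 and 162 CPM in WT libraries 1 to 4, and lysosomal lipase is also abundant in macrophages. Daglb rose 2.39-fold and Abhd12, a further hydrolase of endocannabinoids, 1.36-fold. Pnpla3 rose 2.003-fold, but its groups overlapped, with 266 CPM in ANKO4 and 405 CPM in WT1 (edgeR adjusted p = 0.0263).

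Of the genes that handle the products 9 of 11 were lower and 1 higher (median -1.37), with all genes at 27.6% lower and 30.6% higher. Genes with 100 CPM or more were lower in 53.1% and higher in 13.4% of cases. The glycerol kinase Gk, which lets brown fat reuse glycerol, had 77.4, 92.2, 108 and 59.0 CPM in ANKO libraries 1 to 4, against 303, 498, 1274 and 1054 CPM in WT libraries 1 to 4. The WT libraries spread widely, but none came near the ANKO libraries (9.30-fold, edgeR adjusted p = 0.000329). Pck1, which makes glycerol phosphate for re-esterification, fell 7.25-fold. The glycerol channel Aqp7 fell 2.58-fold, Acsl1, which activates fatty acids, 3.24-fold, the esterifying enzymes Dgat2 and Dgat1 2.99-fold and 1.62-fold, and Cpt1b 3.45-fold. The fatty acid binding protein Fabp4 fell 1.47-fold and the transporter Cd36 1.48-fold. Aqp7, Pck1, Fabp4 and Cd36 are also among the 15 general adipocyte markers described earlier. In the other lists, so are Adrb3, Cidec, Lpl, Pparg and Cebpa. The calls of these lists were not set against the level of the adipocyte markers. Fabp5, the form also made by macrophages, was 128 ± 33.2 CPM in ANKO and 24.1 ± 3.80 CPM in WT (5.34-fold higher). Acsl5 did not pass and split the ANKO group, with 1068 and 1075 CPM in ANKO1 and ANKO2, 285 and 196 CPM in ANKO3 and ANKO4, and 353 to 561 CPM in WT.

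Transcription factors known to act on lipolysis genes were lower in 6 of 9 cases and higher in 0 (median -1.07), set against 27.6% and 30.6% over all genes. For genes with 100 CPM or more these shares were 53.1% and 13.4%. Ppara, known to drive Plin5 and other fat-burning genes, fell 4.65-fold (125 ± 42.8 CPM in ANKO, 583 ± 37.9 CPM in WT, SD, n = 4 each). Pparg, known to drive Pnpla2, G0s2 and Plin1, fell 2.10-fold. Foxo1, which acts on Pnpla2 in adipocytes, fell 3.85-fold, Irf4, which promotes lipase expression in fasting, 3.96-fold, the coactivator Ppargc1a 4.25-fold and Nr1h3 1.81-fold. Hif1a, through which hypoxia acts on Hilpda, did not pass (106 CPM in ANKO, 120 CPM in WT). Cebpa (624 CPM in ANKO, 862 CPM in WT) and Sp1 (126 CPM in ANKO, 141 CPM in WT) did not pass.

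**Figure D5:**
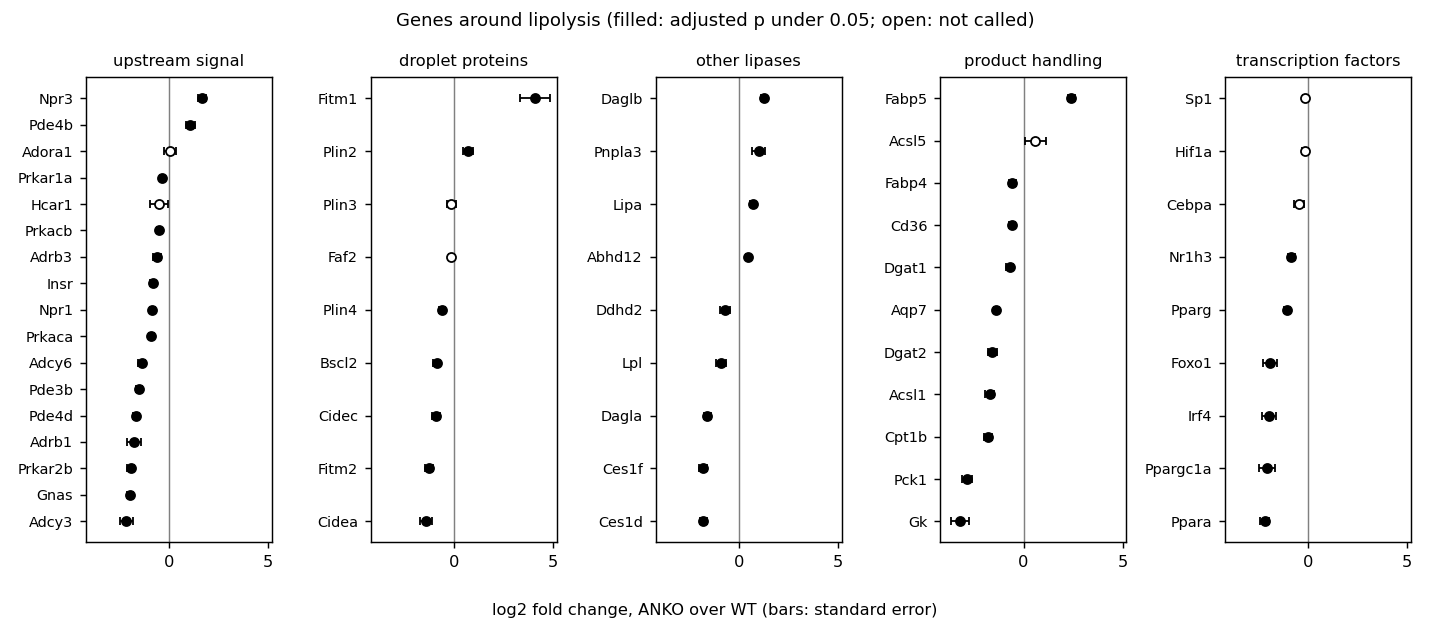
Log2 fold change of ANKO over WT (horizontal axes) with its standard error for the 55 genes of the 5 lists, sorted within each list, filled where the edgeR adjusted p was under 0.05 and open where it was not. Most points lie left of 0, with Npr3, Fitm1, Daglb and Fabp5 farthest to the right in their lists.

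The protein-coding genes whose levels were most like that of Pnpla2 over the 8 libraries, among 9263 that averaged 10 CPM or more, were Bcs1l, Afg3l2, Rbfa, Sh3kbp1 and Ptdss2 (Pearson r of log2 CPM 0.995 to 0.997). The first 3 encode mitochondrial proteins. For Hilpda they were Pdcd6ip, Gramd3, Fmo2, Tcp11l2 and Cdc42ep3, with lower values of r (0.874 to 0.910). The libraries form 2 genotype groups, so for Pnpla2 these values describe mainly a shared difference between groups, and at 8 libraries a high r for some of 9263 genes arises readily.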

How the data were processed

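Flash-frozen tissue was extracted with Qiazol and an RNeasy kit and rRNA removed with Ribo-Zero Gold, per the labels' protocols. The submitters' processing notes name STAR 2.0.4b, featureCounts 1.45 (Subread) and GRCm38. Annotation release, strand setting and treatment of multi-mapping reads: not given in the sources used here. Without strand, reads of a gene and its antisense partner cannot be told apart.

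The authors deposited, per library, a raw count, a CPM and an RPKM for each of 41388 Ensembl genes. The deposited CPM and RPKM followed from the deposited counts and lengths (tolerance 1e-09), and the counts alone were used. Symbols came from GENCODE M21 by gene ID, which matched 40340 genes. The 355 rRNA rows (0.801% to 1.13% of counts in ANKO, 2.83% to 3.53% in WT) were left out.

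ANKO and WT mice (4 each, from the titles) were compared with edgeR 4.0.16 in R 4.3.3: filterByExpr, TMM scaling, the robust quasi-likelihood test without covariate, and Benjamini-Hochberg adjustment over 16705 genes. Printed CPM and RPKM use the TMM-scaled library sizes. Standard errors come from the F statistic. Replicates were taken as animals, since the series' design counts mice. The closest libraries still differed (chi-square 6.63 per degree of freedom). That value cannot tell separate animals from separate preparations of the same animal. Ratios were tested with exact two-sided permutation tests over all 70 splits, with 0.5 added to counts in partner ratios. For the ratios to adipocyte markers, an adjustment over the 9 genes had been planned, and the unadjusted p is given instead, beside its share over all genes. A level of 3 counts was 0.0626 to 0.527 CPM before TMM scaling, counting error only. The edgeR test was also run on simulated counts.

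The members, the lists and the tests were chosen with earlier results of these data known. From the signalling list 1 gene is not reported here and stays out of its counts. The text names the 9 genes, Nampt, the listed genes by value or call, and for Pnpla2 and Hilpda the 5 most alike genes. Alternatives were RLE and upper-quartile scaling, no filter, DESeq2 1.42.0, limma-voom (limma 3.58.1), the replicate block, the muscle marker level (mean log2 CPM of 10 genes), protein-coding nuclear genes, thinning, each library left out and, chosen after seeing the data, WT3 and WT4 left out together. Figures were drawn with matplotlib 3.10.9.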

Additional observations from a re-analysis of the deposited data

Results flagged for a closer look

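In 6 of 164 groups of 4 libraries looked at, 1 library lay far from the other 3 by Dixon's criterion. Chance gives such a flag in about 1 of 20 groups. Among the lipolysis genes and their ratios it met the Abhd6 to Mgll ratio of WT2, which was -4.56 on the log2 scale, against -4.90 to -4.88 in the other WT libraries. Nampt was 571 CPM in WT3, against 484 to 495 CPM in the other WT libraries. In ANKO4, the shallowest library, Pparg was 155 CPM (214 to 226 CPM in the other ANKO libraries), Pde4d 93.8 CPM (129.6 to 132 CPM), Dagla 25.1 CPM (34.2 to 35.5 CPM) and Cpt1b 9.03 CPM (16.6 to 17.9 CPM).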

How the results depend on the processing

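Under RLE or upper-quartile scaling, no filter, DESeq2, limma-voom, protein-coding nuclear genes alone, and with each library left out, 7 of the 9 genes were lower and 0 higher. The same counts held without WT3 and WT4. When muscle markers were a covariate 3 were called, 3 of them lower, and of the 55 listed genes 28 were called, 22 of them lower, against 47 and 38 without it. In that fit Mgll turned to 0.10. In 1 thinning to the lowest total 1 gene, Hilpda, was called higher, and the cause was not tested. Listed genes called ranged from 44 to 47 with each library left out. Without WT3 and WT4 together 41 were called, 33 of them lower.

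The replicate numbers gave no clear sign of pairing: the deviations of same-numbered libraries from their group means correlated at 0.11, -0.01, 0.07 and -0.05. Of the ANKO libraries ANKO1 alone correlated best with its own number. Such correlations cannot exclude pairing. With the replicate block 7 of the 9 genes were still called, all lower, and 44 listed genes.

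Among the ratios, only uncalled ones changed sign. Relative to the adipocyte markers Plin1 was -0.11 with Adipoq alone. With each library left out, Pnpla2 ranged from -0.077 to 0.0535, Abhd5 from -0.33 to 0.0702, and Abhd5 to Pnpla2 from -0.27 to 0.0870. For these ratios 3 against 4 libraries (smallest p 0.0571) and 4 pairs (0.125) cannot pass the threshold, so counts of calls were not made there. Hilpda rested on 58 to 235 reads per ANKO library and 131 to 301 per WT library.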
